A study of Danio rerio with 12 samples.

Results

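Homeobox genes that specify and maintain the cell types of the retina were followed in retinal RNA of adult zebrafish of the F3 generation. The set was chosen by name from the symbols of the deposited expression table: genes of the PAX, LHX, ISL, sine oculis (such as six3a), IRX, MEIS, PBX, ONECUT, VSX, OTX, RX, PROX, BARHL, POU4F, POU6F, NKX and DLX families, leaving out otx5, six7, rx1 and rx2. It held 95 of the 32674 genes of the table, and 61 of the 95 reached a mean of 0.5 FPKM (fragments scaled to gene length and library size) over 11 libraries and were tested. Of the 32674 genes 20495 had a symbol. Genes without a symbol could not be matched, so the families may not be complete. All fish were of the EK strain. Fish of the MeHg lineage descend from F1 eggs kept for 24 h in 0.03 µM methylmercury with ethanol as the vehicle, and fish of the control lineage from F1 eggs kept in the vehicle with 0 µM methylmercury; neither the F2 nor the F3 generation of either lineage met added methylmercury. Of 12 labelled samples, 11 were analysed: control libraries 3, 4, 5, 7 and 8 (n = 5) and MeHg libraries 2 to 7 (n = 6), which the labels call biological replicates. The sources used here do not give the fish per library, the founder pairs per lineage or the sex and age of the fish beyond adult, so lineage and founder family cannot be told apart.

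Homeobox proteins bind DNA through a homeodomain and act as transcription factors. In the vertebrate eye, PAX6, SIX3, SIX6, LHX2 and RX proteins set up the eye field and the retinal progenitors. Later, combinations of homeodomain proteins mark the postmitotic cell types: VSX and OTX proteins in bipolar cells and photoreceptors, PROX1, LHX1 and ONECUT proteins in horizontal cells, POU4F, ISL and BARHL proteins in ganglion and amacrine cells. MEIS and PBX proteins are broadly expressed partners that bind DNA together with other homeodomain proteins. Many of these genes stay on in the adult, where they serve as markers of the cell types.

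The libraries held 2838155 to 5663021 assigned fragments in the control lineage and 4354466 to 6749645 in the MeHg lineage by the companion table. Markers of retinal cells were present in every library: 18 photoreceptor genes summed to 9458 to 28760 FPKM and 18 amacrine genes to 725 to 1797 FPKM. In control libraries 5 and 7 other transcripts stood out. There, 18 genes expressed in oocytes and used as oocyte markers summed to 1827 and 3586 FPKM, and in the other 9 libraries to 0.980 to 10.1 FPKM. Among them ccnb1 was above 0 in every library, at 0.428 to 2.75 FPKM in these 9. Keratins and other markers of skin and cornea (12 genes) were present in every library and summed to 2162 to 10357 FPKM in the control lineage and to 239 to 4793 FPKM in the MeHg lineage. Markers of muscle (16 genes) summed to 81.9 to 679 FPKM in the control lineage and to 18.5 to 580 FPKM in the MeHg lineage. The calls and medians of the homeobox genes, and the counts for the other gene lists, are given also without control libraries 5 and 7. These are bulk samples, in which fewer cells of a type and less RNA per cell cannot be told apart.

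Between the lineages, 5 homeobox genes rose in the MeHg lineage (meis3, lhx2b, prox1b, lhx4 and irx4b), 1 fell (otx1b) and 55 did not pass (limma, Benjamini-Hochberg adjusted p under 0.05 over all genes tested). That is 9.84% of the 61, against 8.98% of the 20320 genes tested, so the share of homeobox genes called lay near that of all genes. Among the 46 tested genes of the 5 retinal groups followed below, 5 were higher and 1 lower, or 13.0%. Without control libraries 5 and 7, 1 of these 46 was higher and 1 lower. Over all genes 5.47% were higher and 3.50% lower. The median log2 difference, MeHg minus control on the log2(FPKM + 1) scale, was 0.08 over the homeobox genes and 0.02 over all genes; without control libraries 5 and 7 both medians turned negative, to -0.04 and -0.0032. Without control libraries 5 and 7, 1 of 58 homeobox genes was higher (meis3) and 1 lower (otx1b), against 3.64% and 4.65%, or 8.28% in all, of 19697 genes. The lineages did not overlap in 4 homeobox genes, 3 higher (meis3, lhx2b and prox1b) and 1 lower (otx1b), against 7.52% of all genes, 4.80% higher and 2.72% lower. With all libraries 16 of the 61 homeobox genes, or 26.2%, were at an unadjusted p under 0.05, near the 24.1% of all genes. Of the 46 genes of the retinal groups it was 15, or 32.6%.

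**Figure D1:**
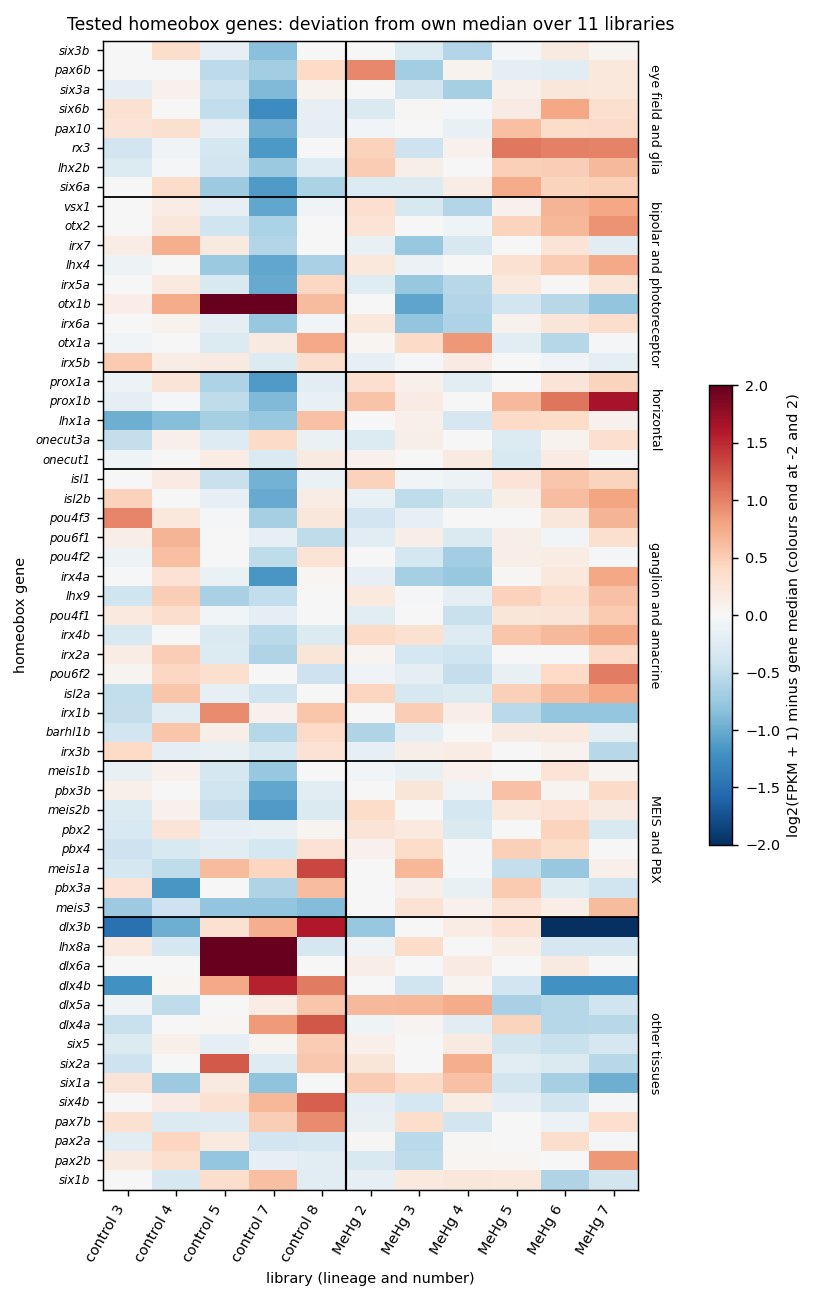
Deviation of 59 tested homeobox genes, each from its own median over the 11 libraries, in log2(FPKM + 1), with genes in rows by group and libraries in columns, the vertical line parting the lineages. Control library 7 is low over most retinal genes, and lhx8a, dlx6a and otx1b are high in control libraries 5 and 7.

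The levels of the retinal groups first describe the adult retina of the control lineage. Per length, the most abundant members were six3b, an eye-field gene of the sine oculis type, at 88.3 ± 24.5 FPKM (SD, n = 5), and vsx1, a bipolar cell gene, at 81.7 ± 22.2 FPKM (SD, n = 5). Their levels did not differ beyond their spread, though six3b ranked first in each of the 5 control libraries. In the MeHg lineage vsx1 ranked first in 4 libraries and six3b in the other 2. Next stood pax6b (52.4 ± 16.0 FPKM), six3a (46.4 ± 12.0 FPKM) and six6b (38.4 ± 14.2 FPKM). These means did not differ from each other beyond their spread over libraries, though pax6b lay above six6b in each of the 5 control libraries. The leading genes of the other groups were meis1b, a MEIS cofactor (35.3 ± 7.86 FPKM), isl1, a LIM-homeobox gene of ganglion, amacrine and bipolar cells (29.3 ± 8.39 FPKM), and prox1a, of horizontal cells (22.1 ± 7.93 FPKM). At the low end, onecut1 and onecut3a, horizontal cell genes in mouse, had means of 0.617 ± 0.209 and 0.694 ± 0.397 FPKM.

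Of the eye-field group, which holds PAX6, SIX3, SIX6, LHX2 and RX genes that are kept in part in amacrine cells and Muller glia, 1 of 8 tested genes rose and 7 did not pass. That was 12.5% called, against 8.98% of all genes. The median difference of the group was 0.41 in log2, or 0.09 once control libraries 5 and 7 were left out. The gene that rose was lhx2b (ENSDARG00000031222), a LIM-homeobox gene needed in mouse for the optic vesicle and for Muller glia. Its level was 5.04, 6.22, 4.59, 3.37 and 5.09 FPKM in control libraries 3, 4, 5, 7 and 8, and in the MeHg libraries the lowest, median and highest values were 6.31, 9.25 and 10.4 FPKM. No control value reached the lowest MeHg value, though control library 4 came close to MeHg library 4. The means were 4.86 ± 1.03 (SD, n = 5) and 8.6 ± 1.6 FPKM (SD, n = 6). By limma the lineages differed by 0.71 ± 0.17 (SE) in log2, with an adjusted p of 0.0229. Without control libraries 5 and 7 the difference was 0.56 ± 0.18 (SE) and the adjusted p 0.0867. Of the markers of Muller glia, the glial cell of the retina, 1 of 10 was higher and 2 were lower, or 30% against 8.98% of all genes called. Without control libraries 5 and 7, 1 was higher and 3 were lower, against 8.28% of all genes called.

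The gene with the next smallest p in this group was rx3, which zebrafish need to form eyes. It was at 11.7, 14.8, 12.0, 6.46 and 15.6 FPKM in control libraries 3, 4, 5, 7 and 8 and at 11.5 to 33.4 FPKM with a median of 27.0 FPKM in the MeHg libraries. MeHg libraries 5, 6 and 7 were at 32.0 to 33.4 FPKM and MeHg library 3 lay among the controls, so the groups overlapped. The log2 difference of 0.92 ± 0.30 (SE) did not pass (limma adjusted p = 0.0756). Of 23 alternative fits it passed in 1, the fit without MeHg library 3 (1.11, limma adjusted p = 0.0236). For six3b the log2 difference was 0.01 ± 0.21 (SE; limma adjusted p = 0.973), and -0.24 ± 0.18 without control libraries 5 and 7. For pax6b the values ran from 34.5 to 74.7 FPKM in the control lineage and from 34.4 to 111 FPKM in the MeHg lineage, where library 2 was the highest; the log2 difference was 0.19 ± 0.28 (SE).

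Of the bipolar and photoreceptor group 1 of 10 genes rose and 1 fell, or 20% against 8.98% of all genes called. The median difference was 0.03 in log2. The gene that fell, otx1b, was highest in control libraries 5 and 7, those with oocyte transcripts. The other 8 did not pass. Leaving out control libraries 5 and 7, none rose and 1 fell by limma, and the median turned to -0.13. The gene that rose was lhx4 (ENSDARG00000039458), a LIM-homeobox gene that marks cone bipolar cells in mouse. Its level was 21.6, 23.1, 13.4, 10.8 and 14.4 FPKM in control libraries 3, 4, 5, 7 and 8, and 21.2, 27.8 and 39.9 FPKM at the lowest, the median and the highest MeHg library. Control libraries 3 and 4 lay above MeHg library 3 and below the other MeHg libraries, while control libraries 5, 7 and 8 lay below all of them. The log2 difference was 0.78 ± 0.22 (SE; limma adjusted p = 0.0419), and 0.53 ± 0.21 (adjusted p = 0.192) without control libraries 5 and 7. The bipolar gene vsx1 and otx2, a photoreceptor and bipolar gene, had log2 differences of 0.39 and 0.53 and did not pass. Bipolar markers outside the homeobox families had 4 higher and 1 lower of 14, or 35.7% against 8.98% of all genes called. Their median log2 difference was 0.57. Among those called were the ON bipolar synapse gene nyx (2.03-fold higher) and the calcium-binding protein gene cabp5a (log2 difference -1.23). Of the 14, 2 were higher (nyx among them) and 2 lower without control libraries 5 and 7, and the median was 0.25. Of 18 photoreceptor markers 5 were higher and 2 lower, or 38.9% against 8.98% of all genes called. The numbers were the same without control libraries 5 and 7, where 8.28% of all genes were called.

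The gene that fell was otx1b (ENSDARG00000094992), an orthodenticle gene known best from the forebrain and named otx1 in the RefSeq table for GRCz12tu. It was at 1.28, 2.47, 9.39, 22.8 and 2.22 FPKM in control libraries 3, 4, 5, 7 and 8 and at 0, 0.406 and 1.08 FPKM at the lowest, median and highest MeHg library. The highest controls were the libraries with oocyte transcripts, at 9.39 and 22.8 FPKM. The remaining controls still lay above every MeHg library, by a narrow margin for control library 3. The log2 difference was -2.03 ± 0.53 (SE; limma adjusted p = 0.0309) with all libraries and -1.06 ± 0.27 (SE; adjusted p = 0.0362) without control libraries 5 and 7. The fragment numbers behind it were 10.1 to 394 in the control libraries and at most 18.9 in the MeHg libraries and were not whole numbers. The related otx1a, named otx2a in the same table, had 1.11 ± 0.625 FPKM (SD, n = 5) and 1.08 ± 0.763 FPKM (SD, n = 6).

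**Figure D2:**
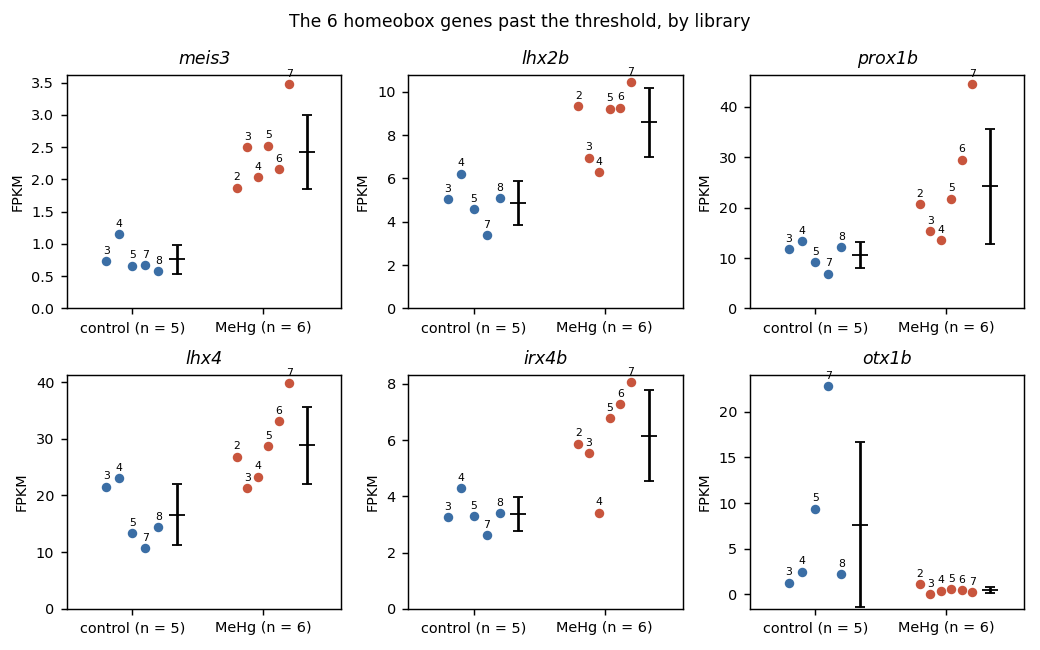
FPKM of the 6 homeobox genes past the threshold in each library, the number beside a point being the library's number and the bars the mean and SD of 5 control and 6 MeHg libraries. The lineages do not overlap for meis3, lhx2b, prox1b and otx1b and overlap for lhx4 and irx4b, and MeHg library 7 is the highest for each gene that rose.

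Of the horizontal cell group 1 of 5 genes rose and 4 did not pass, with a median log2 difference of 0.52, and 0.18 without control libraries 5 and 7. That was 20% called, against 8.98% of all genes. Without control libraries 5 and 7 none of the group passed by limma, against 8.28% of all genes called. The gene that rose was prox1b (ENSDARG00000088810), a prospero-type homeobox gene that the RefSeq table names prox3. It was at 11.7, 13.3, 9.25, 6.90 and 12.2 FPKM in control libraries 3, 4, 5, 7 and 8, and at 13.6, 21.2 and 44.5 FPKM at the lowest, median and highest MeHg library. The groups did not overlap, but control library 4 and MeHg library 4 lay next to each other, and MeHg library 7 stood above the rest. The log2 difference was 1.03 ± 0.28 (SE; limma adjusted p = 0.0367), and 0.80 ± 0.31 (adjusted p = 0.172) without control libraries 5 and 7. For prox1a, the PROX1 gene that marks horizontal cells, the log2 difference was 0.52 ± 0.22 (SE; limma adjusted p = 0.180). The LIM-homeobox gene lhx1a, needed in mouse to place horizontal cells, was at 1.06, 1.26, 1.57, 1.40 and 5.13 FPKM in the control libraries 3, 4, 5, 7 and 8 and at 2.22 to 4.32 FPKM in the MeHg libraries. All controls but library 8 lay below the MeHg libraries. It did not pass with all libraries (log2 difference 0.63, limma adjusted p = 0.185). Of 23 alternative fits it passed in 2, without control library 8 (0.92, limma adjusted p = 0.0132) and in the companion table (1.03, adjusted p = 0.0367). Among 6 horizontal cell markers outside the homeobox families 1, the connexin gene cx52.7, was lower (log2 difference -1.27) and none higher by limma. That was 16.7% called, against 8.98% of all genes. The median log2 difference of the 6 was -0.03. At an unadjusted p under 0.05 were 4 of the 6, or 66.7% against 24.1% of all genes, and they went both ways. Lower were cx52.7 and cx52.6 (-0.94), and higher were cx52.9 (0.70) and calb1 (0.59). Of the 6, 2 were lower and none higher without control libraries 5 and 7. In that fit 3.64% of all genes were higher and 4.65% lower.

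The ganglion and amacrine group holds POU4F, ISL, BARHL, LHX9, POU6F and DLX genes and some of the Iroquois genes. Its DLX genes, dlx1a and dlx2a, were not tested. The Iroquois genes irx5a, irx5b, irx6a and irx7 were counted in the bipolar and photoreceptor group. Of the 15 genes tested 1 rose, or 6.67% against 8.98% of all genes called, and 14 did not pass. The median difference was 0.00 in log2. When control libraries 5 and 7 were left out, none was called by limma and the median was -0.12. The POU4F genes, which mark ganglion cells, had log2 differences of -0.19 for pou4f2, -0.09 for pou4f3 and 0.00 for pou4f1. The gene that rose was the Iroquois gene irx4b (ENSDARG00000036051), at 3.25, 4.28, 3.31, 2.62 and 3.39 FPKM in control libraries 3, 4, 5, 7 and 8 and at 3.42, 6.33 and 8.05 FPKM at the lowest, median and highest MeHg library. Its groups overlapped through control library 4 and MeHg library 4. The log2 difference was 0.69 ± 0.20 (SE; limma adjusted p = 0.0478), and 0.60 ± 0.23 (adjusted p = 0.160) without control libraries 5 and 7. The other gene of this stem, irx4a, had a log2 difference of 0.10 ± 0.31 (SE), and isl1 one of 0.53 ± 0.21 (SE; limma adjusted p = 0.143). Of 13 ganglion cell markers 1 was lower (neflb, a neurofilament gene, log2 difference -1.04), or 7.69% against 8.98% of all genes called. Of 17 amacrine markers none passed by limma. At an unadjusted p under 0.05 were 3 of the 17 (sst1.1, tac1 and gad1a), or 17.6%, against 24.1% of all genes. Also without control libraries 5 and 7, 1 ganglion cell marker was lower and no amacrine marker passed, against 8.28% of all genes called.

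Of the MEIS and PBX cofactors 1 of 8 rose and 7 did not pass, with a median log2 difference of 0.34, and 0.15 without control libraries 5 and 7. That was 12.5% called, against 8.98% of all genes. Without control libraries 5 and 7, 1 of the 8 was called, against 8.28% of all genes. The gene that rose, meis3 (ENSDARG00000002795), had the smallest p of all homeobox members; it encodes a MEIS protein known from the patterning of the zebrafish hindbrain. Its level was low throughout, at 0.731, 1.16, 0.666, 0.670 and 0.576 FPKM in control libraries 3, 4, 5, 7 and 8 and at 1.87, 2.33 and 3.48 FPKM at the lowest, median and highest MeHg library. The groups were well apart, with control library 4 the nearest to the MeHg libraries. The means were 0.760 ± 0.228 (SD, n = 5) and 2.43 ± 0.575 FPKM (SD, n = 6). By limma the lineages differed by 0.96 ± 0.18 (SE) in log2, with an adjusted p of 0.00520. Behind these levels stood 4 to 12 fragments in a control library and 27 to 42 in a MeHg library. Without control libraries 5 and 7 the difference was 0.91 ± 0.21 (SE; adjusted p = 0.0212). The more abundant meis2b and meis1b had log2 differences of 0.53 ± 0.21 and 0.27 ± 0.16 (SE) and did not pass, and no PBX gene passed.

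**Figure D3:**
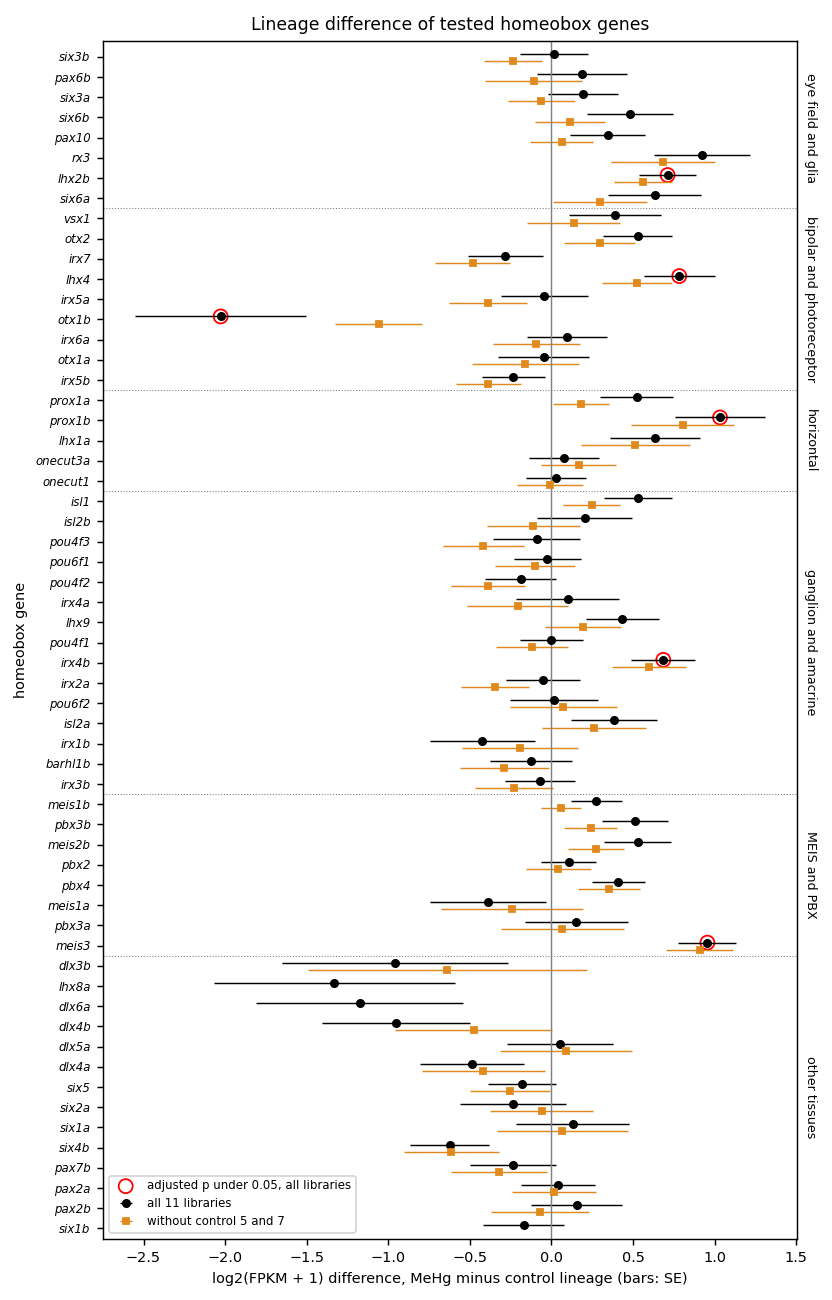
Log2(FPKM + 1) difference of MeHg minus control lineage with its SE for 59 tested homeobox genes, with all 11 libraries (circles) and without control libraries 5 and 7 (squares). Most retinal genes move to lower differences without these libraries; lhx8a, dlx6a and six1b have no square because they then fall below a mean of 0.5 FPKM.

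The calls other than that of meis3 lay close to the threshold. When each of the 11 libraries was left out in turn, meis3 passed every time (limma adjusted p of 0.00636 to 0.0173). The call of lhx2b was lost without control library 5 or MeHg library 2, 5, 6 or 7 (adjusted p up to 0.0565), and that of otx1b without control library 5 or MeHg library 3, 4, 5, 6 or 7 (up to 0.0860). The call of lhx4 was lost without control library 5, 7 or 8 or MeHg library 2, 5, 6 or 7 (up to 0.108), that of prox1b without control library 3, 5, 7 or 8 or MeHg library 2, 5, 6 or 7 (up to 0.0893), and that of irx4b in 9 of 11 cases, every library but control 4 and MeHg 4 (up to 0.107). The direction of the difference was the same in all these fits for the 6 genes.

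Retinal members tended to be low or high together within a library. Of the 46 tested genes of the 5 retinal groups, 32 had their lowest control value in library 7 and 28 their highest in library 4. The median deviation from a gene's own median was -0.68 in control library 7 and -0.24 in control library 5 on the log2 scale, against -0.02 to 0.12 in control libraries 3, 4 and 8. In the MeHg lineage 22 of the 46 were lowest in library 4 and 21 highest in library 7, with median deviations of -0.15 and 0.34. MeHg library 6 stood at 0.26. In MeHg libraries 6 and 7 the skin markers summed to 251 and 239 FPKM and the muscle markers to 43.6 and 18.5 FPKM, the lowest sums of all libraries for either list. The photoreceptor markers summed to 9458 FPKM in control library 7 and 16120 FPKM in control library 5, and to 20147 to 26337 FPKM in the other controls. Leaving out control libraries 5 and 7 lowered the log2 difference of 41 of the 46 genes, and the median of the 46 went from 0.19 to 0.06. The median of all genes went from 0.02 to -0.0032. The counts of lowest, highest and lowered values were not made over all genes. A shift shared by other genes of a library can therefore not be told apart from one of these members. The part of the oocyte, skin and muscle transcripts in these shifts was not tested.

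The group of genes known mainly from other tissues held 43 members, of which 15 were tested. None passed by limma, against 8.98% of all genes called. At an unadjusted p under 0.05 was 1 of the 15, or 6.67%, against 24.1% of all genes. That gene was six4b, known from muscle and cranial placodes, at 0.398, 0.572, 0.724, 1.21 and 2.19 FPKM in control libraries 3, 4, 5, 7 and 8 and at 0.0869 to 0.554 FPKM in the MeHg libraries (log2 difference -0.62, adjusted p = 0.139). The distal-less gene dlx4b had a log2 difference of -0.95 with all libraries (limma adjusted p = 0.220). Of 23 alternative fits it passed in 1, the fit without control library 3 (log2 difference -1.36, limma adjusted p = 0.0372). The median difference of the group was -0.24 in log2. Here lhx8a and dlx6a were high in the libraries with oocyte transcripts. Both reached the mean of 0.5 FPKM only through these libraries. The LIM-homeobox gene lhx8a, whose mouse counterpart is needed for oocyte development, was at 7.39 and 22.2 FPKM in control libraries 5 and 7 and at most at 0.626 FPKM in the other 9. The distal-less gene dlx6a was at 4.58 and 12.8 FPKM in the same libraries and at most at 0.133 FPKM elsewhere. Its neighbour in the genome, dlx5a, a partner of dlx6a in the skeleton of the head, was at 1.72 and 2.01 FPKM in control libraries 5 and 7, within its range of 0.742 to 3.54 FPKM over all libraries. From control library 5 to control library 7 the level was 2.43 times as high for otx1b, 3.0 times for lhx8a and 2.80 times for dlx6a. For the summed oocyte markers it was 1.96 times as high. The part of oocyte transcripts in these levels was not tested.

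The distal-less gene dlx3b, which acts in epidermis and in the ear and nose placodes, was at 2.09, 3.41, 9.70, 13.3 and 25.2 FPKM in control libraries 3, 4, 5, 7 and 8, where the skin markers summed to 2682, 2162, 5679, 6291 and 10357 FPKM. In MeHg libraries 6 and 7 dlx3b was at 0.548 and 0.284 FPKM beside 251 and 239 FPKM of skin markers, and in MeHg libraries 2 to 5 at 4.15, 7.66, 8.58 and 9.63 FPKM beside 2816, 4793, 4325 and 2452 FPKM. Control library 8 had the most of both and MeHg libraries 6 and 7 the least of both, whereas among MeHg libraries 2 to 5 the highest dlx3b stood beside the lowest skin sum. The genome neighbour of dlx3b, dlx4b, was listed at 0 in MeHg libraries 6 and 7 and in control library 3, and at 5.70 FPKM in control library 7. The part of skin tissue in these levels was not tested.

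**Figure D4:**
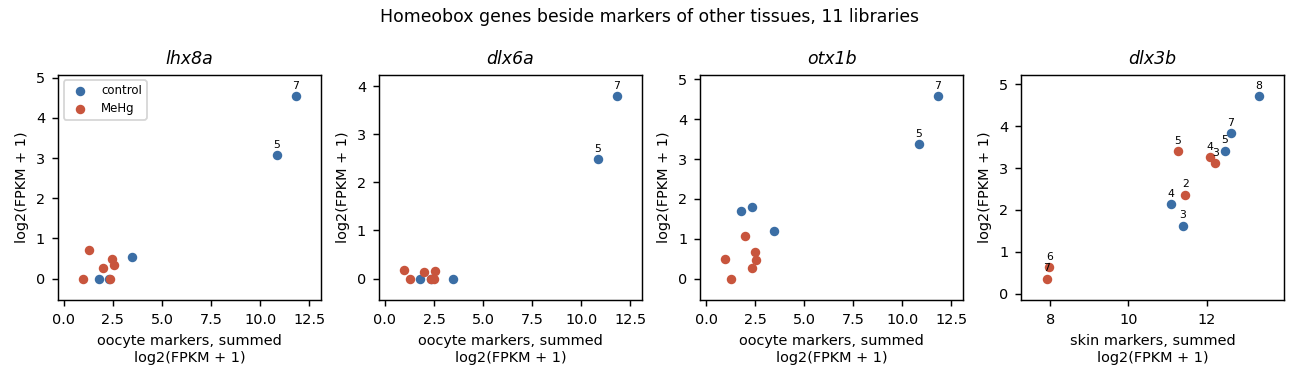
Level of lhx8a, dlx6a and otx1b beside the summed oocyte markers and of dlx3b beside the summed skin markers, each in log2(FPKM + 1), for 5 control and 6 MeHg libraries, with library numbers. Control libraries 5 and 7 stand alone at the upper right of the oocyte panels, and MeHg libraries 6 and 7 at the lower left of the skin panel.

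A within-library comparison of genes with the same stem asked whether members of a pair shifted against each other. There were 12 pairs with both members tested, each taken as the log2 ratio of FPKM + 1, and the pairs were set after the values had been seen. The ratio of irx4b to irx4a was -0.72 ± 0.40 (SD, n = 5) in the control lineage and -0.13 ± 0.31 (SD, n = 6) in the MeHg lineage (two-sided exact permutation test, p = 0.0303, adjusted over 12 pairs 0.156). Control library 7, at -0.01, lay among the MeHg libraries, and the other controls lay at -0.95 to -0.79, below all MeHg libraries. For prox1b over prox1a the ratio was -0.94 ± 0.21 in the control and -0.43 ± 0.43 in the MeHg lineage (exact permutation p = 0.0433, adjusted 0.156); for six3b over six3a it was 0.91 ± 0.15 and 0.73 ± 0.10 (exact permutation p = 0.0519, adjusted 0.156). For otx1b over otx1a it was 1.5 ± 1.5 and -0.48 ± 0.68 (exact permutation p = 0.0130, adjusted 0.156). Control libraries 5 and 7 stood at 2.74 and 3.49, and without them the control mean was 0.41 (exact permutation p = 0.0714, adjusted 0.286). Without these libraries the exact permutation p was 0.0238 for irx4b over irx4a and 0.0476 for prox1b over prox1a (adjusted 0.286 for both). For six3b over six3a it was 0.119 (adjusted 0.357). The other 8 pairs had an unadjusted exact p of 0.165 to 0.701, and no pair passed the adjustment. The smallest p that 5 against 6 libraries allow is 0.00433, so that a single pair cannot go below 0.0519 after adjustment and could not have passed alone. With 3 control libraries against 6 the smallest p is 0.0238, so that a single pair could not have passed alone there either.

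**Figure D5:**
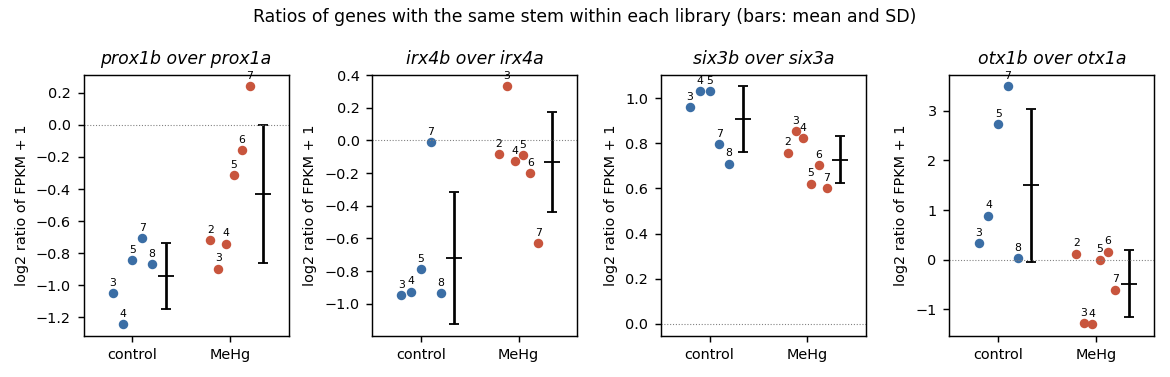
Log2 ratio of FPKM + 1 of 4 gene pairs with the same stem in each library, with library numbers and the mean and SD of 5 control and 6 MeHg libraries. The irx4 ratio of control library 7 lies among the MeHg libraries, and the prox1 ratio is highest in MeHg libraries 5, 6 and 7.

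Of the 95 members 94 were found in the RefSeq gene table of GRCz12tu, where 19 pairs of members stood next to each other among coding genes, 9 of them with both members tested. In 3 pairs both log2 differences had the same sign: dlx3b and dlx4b (-0.96 and -0.95), six4b and six1b (-0.62 and -0.17), and six6a and six1a (0.63 and 0.13). In the other 6 the signs differed: irx1b and irx4b (-0.42 and 0.69), irx4a and irx2a (0.10 and -0.05), irx6a and irx5a (0.10 and -0.04), six2a and six3a (-0.24 and 0.19), six1b and six6b (-0.17 and 0.48), and dlx6a and dlx5a (-1.17 and 0.05). Of these genes irx4b alone passed with all libraries. The differences of irx4a, irx2a, irx6a and irx5a were smaller than their SE (0.31, 0.23, 0.25 and 0.27). So were those of six2a, six3a, six1b, six1a and dlx5a (SE 0.32, 0.21, 0.25, 0.35 and 0.32). Signs of neighbours were not counted over all genes. Signs became the same without control libraries 5 and 7 for irx4a and irx2a (-0.21 and -0.35) and for irx6a and irx5a (-0.09 and -0.39). The same held for six2a and six3a (-0.06 and -0.06). Only irx1b and irx4b (-0.19 and 0.60) then still differed, since six1b and dlx6a were no longer tested.

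The 34 members that were not tested had means of 0 to 0.467 FPKM. Of these 9 were listed at 0 in every library and 4 reached 1 FPKM in any. Just below the limit stood barhl1a, of ganglion and amacrine cells, with a mean of 0.467 FPKM and values of 0.143 to 1.37 FPKM, and just above it six1b, with a mean of 0.553 FPKM and values of 0 to 1.3 FPKM. The next gene below was nkx2.5, a heart gene, with a mean of 0.422 FPKM. Only 6 of the 34 belonged to the retinal groups, among them dlx2a, which was at 2.29 FPKM in control library 8 and at most 0.533 FPKM elsewhere.

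Partners and neighbouring factors of the retinal homeobox proteins gave a context. The partner list held 32 genes for proteins that bind homeodomain factors or are linked to their complexes. It included EYA and DACH proteins that bind sine oculis factors, and LDB, SSBP and LMO proteins linked to LIM-homeodomain complexes. PKNOX and other PBX-binding proteins and TLE corepressors were in it as well. Of the 32, 2 rose, 1 fell and 29 did not pass. The share called was 9.38%, near the 8.98% of all genes, and the median difference was 0.11 in log2. The gene ssbp4, whose product stabilises LIM-homeodomain complexes, had 16.1 ± 3.0 FPKM in the control lineage and 37.2 ± 6.35 FPKM in the MeHg lineage (log2 difference 1.16 ± 0.16, limma adjusted p = 0.000786). The LIM-domain-binding gene ldb2a had 3.33 ± 1.05 and 6.1 ± 1.2 FPKM (log2 difference 0.73, limma adjusted p = 0.0364). The PBX-binding gene pbxip1a fell by 0.87 on the log2 scale. Of 60 other transcription factors of inner retinal neurons and glia 6 rose and none fell by limma. That made 10% called, against 8.98% of all genes (5.47% higher and 3.50% lower). At an unadjusted p under 0.05 were 13, or 21.7%, against 24.1% of all genes. The median difference was 0.19 in log2. The largest difference among them was in neurod1, a bHLH factor of photoreceptors and amacrine cells, at 88.1 ± 45.9 FPKM in the control lineage and 562 ± 133 FPKM in the MeHg lineage (log2 difference 2.77 ± 0.29, limma adjusted p = 0.000124). The inhibitor of bHLH factors id2a rose 1.53-fold and the SOX gene sox4a 2.4-fold; the others that rose were nr2f2, id2b and id3. Without control libraries 5 and 7 ssbp4, ldb2a and pbxip1a kept their calls. Of 61 other factors 3 then rose (neurod1, id2a and nr2f2) and none fell, with a median of 0.04. The gene sox4a did not pass (limma adjusted p = 0.0557). In that fit 8.28% of all genes were called.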

How the data were processed

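Libraries were TruSeq RNA with paired reads of 100 bases and a stated depth of 14 to 32 M reads, sequenced with 12 samples in each lane, per the labels' protocols. The submitters' processing notes name CASAVA 1.8.2, cutadapt, FastQC, TopHat and Cuffnorm and the build Zv9. The deposited FPKM table is scaled to length and library size. The companion deposited table is a signal: fragment numbers divided by a size factor per library, with 98.8% to 99.1% of values within 0.01 of a whole multiple of 1 step. It gave the depth and, for lack of whole counts throughout, no count test. Each deposited table has 1 unnamed column, which was not used, and control replicate 1 was not analysed here. The annotation and whether strand was counted were not given in the sources used here.

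The fit took log2(FPKM + 1) of each gene averaging 0.5 FPKM or more to limma 3.58.1 (R 4.3.3), with a trended prior and Benjamini-Hochberg adjustment over all 20320 genes; differences on this scale understate changes of low genes. The fit was also run on simulated data with independent noise in each gene. Shifts shared by the genes of a library were not simulated. Exact permutation tests used scipy 1.17.1. The members, groups and lists were chosen with earlier results of these data known. Named are all members called, their same-stem partners, and in each group the highest in the control lineage and the 2 with the smallest p. By name 2 tested members are not reported here, though counts and medians include them. Other members named were chosen after their values were seen. Of each context list up to 3 genes with the smallest p are given values. Alternatives covered pseudocount, filter, scaling, weights, depth, replicate block and libraries left out.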

Additional observations from a re-analysis of the deposited data

Results flagged for a closer look

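In 122 groups of values (61 homeobox genes in each lineage) 4 had 1 library far from the others by Dixon's gap ratio; chance flags about 1 in 20 groups. In the control lineage meis3 was at 1.16 FPKM in library 4, the next value being 0.731 FPKM, which brought that library nearest to the MeHg lineage. The PBX gene pbx4 was at 15.4 FPKM in control library 8 with the next at 10.6 FPKM. It was not called with all libraries (limma adjusted p = 0.147). Of 23 alternative fits it was called higher in 1, the fit without control library 8 (limma adjusted p = 0.0468). For lhx1a control library 8 was at 5.13 FPKM and the next at 1.57 FPKM. In the MeHg lineage pax2b, an optic stalk gene, was at 2.48 FPKM in library 7 and the next value was 0.948 FPKM.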

How the results depend on the processing

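Of all genes 1824 were called, 151 with the replicate block, 756 on the same libraries of shared numbers without it, and 1177 to 1905 with 1 library left out. Over all genes tested, libraries of the shared numbers 3, 4, 5 and 7 showed no positive correlation by number (-0.23 to -0.01, deviations from lineage means). Whether same-numbered libraries shared handling was not tested. With the block 0 homeobox genes were called higher, 0 lower and 0 groups held a called gene, with 0 calls kept and 1 of the context genes called. The limma adjusted p of meis3 was 0.216 with the block. Without the block those libraries gave 1 higher, 0 lower, 1 group, 1 call kept and 4 context genes. Without control libraries 5 and 7 there were 1 higher, 2 groups with a call and 2 calls kept; with the depth covariate 1, 2 and 2, with 5 context genes; with no filter 2, 3 and 3. Over libraries left out in turn, 1 to 5 genes were higher, 0 to 2 lower, 1 to 5 groups had a call, 1 to 6 calls were kept and 6 to 10 context genes were called. Reversed differences, none of them called, were irx4a (-0.019 with array weights, -0.21 without control libraries 5 and 7, -0.14 to 0.23 with 1 library left out), six3b (-0.050 with array weights and on shared numbers with and without block, -0.24 without control libraries 5 and 7, -0.17 to 0.13 with 1 left out) and otx1a (0.025 with quantile normalization, 0.10 with the depth covariate, 0.28 on shared numbers with and without block, -0.21 to 0.11 with 1 left out). The causes were not tested. The planned count tests were not run, since fragment numbers were not whole throughout. Low members such as meis3 rest on few fragments, which limits their precision.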
